A study of Mus musculus with 11 samples.

Results

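A set of 10 genes of cytotoxic T cells and natural killer (NK) cells were followed across RNA-sequencing libraries of mouse brain cells labelled as microglia-like. They were chosen by symbol: the granule genes Gzmb, Gzma, Prf1 and Nkg7, the T cell receptor complex genes Cd3e, Cd3g and Trbc2, the receptor genes Klrd1 and Il2rb, and the chemokine gene Ccl5. The choice was made with earlier results of these data known. Of the 10 listed genes, 9 had a row among the 24411 gene symbols of each table, and Trbc2 was not analysed here. Cytotoxic T cells and NK cells kill infected or altered cells by releasing granules in which perforin, a pore-forming protein, lets granzymes, which are serine proteases, into the target. T cells recognise a target through the T cell receptor and its CD3 chains, and NK cells through germline-encoded receptors. Both depend on interleukin 2 and interleukin 15 signals, and both can be found in small numbers in the brain and its borders.

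The series compared routes of transplanting blood-forming cells in mice: intravenous (IV), into the cerebral ventricles (ICV) and into the lumbar intrathecal space (ITL). Its title names a mouse model of Alzheimer's disease, but the labels do not say which libraries came from such animals. RNA was taken from sorted myeloid brain cells. The order here is the ICV CD45.2 library titled PBS, the CD45.1 libraries titled TAµ (IV, ICV and ITL), the CD45.2 libraries titled µ (IV, ICV and ITL), the CD45.1 libraries titled µ (IV, ICV and ITL), and a control (CTR) µ library. CD45.1 and CD45.2 are alleles of the Ptprc gene that mark the origin of blood cells. The labels expand neither TAµ nor PBS, do not say which allele marked the host, and give no genotype for CTR, no age and no number of animals per library. Each of these 11 combinations had 1 library, so libraries of 1 population given by different routes served as its only replicates, and their spread includes any effect of route.

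Total counts ran from 6090589 to 21282823 per library, and levels are given as counts per 1000000 counts of the library total (CPM). All 10 microglia markers followed had a count in all 11 libraries, with summed levels of 10731 to 32291 CPM. The number of genes with a count ran from 10477 in IV CD45.2 µ to 15492 in IV CD45.1 TAµ. The libraries also differed in Xist, which is transcribed in female cells: 12.3 to 429 CPM in the TAµ libraries, 4028 to 6399 CPM in the CD45.2 µ libraries and 295 to 6291 CPM in the CD45.1 µ libraries, of which ICV CD45.1 µ had the highest. Results are therefore also given without ICV CD45.1 µ and IV CD45.2 µ where a value changed.

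The upstream sequences of the 4 granule genes are shown because these genes encode the killing machinery. Their levels are described after the sequences, and Nkg7 was not limited to the TAµ population. Each is the 250 bases before the RefSeq start on GRCm38.p6, an older build than that of the counts, printed 5′ to 3′ on the gene's strand. Capitals mark matches to letters bound by transcription factor families of killer lymphocytes: TGTGGT (RUNX factors), TGANTCA (AP-1) and TCACACC (T-box factors), each searched on both strands, so that ACCACA is TGTGGT and GGTGTGA is TCACACC on the other strand.
Gzmb, chr14:56262335-56262584, minus strand: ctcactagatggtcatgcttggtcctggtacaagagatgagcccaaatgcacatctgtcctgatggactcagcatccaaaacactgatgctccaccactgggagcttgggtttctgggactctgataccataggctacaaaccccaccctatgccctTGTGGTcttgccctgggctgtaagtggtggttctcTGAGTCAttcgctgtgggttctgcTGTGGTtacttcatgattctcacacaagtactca
Gzma, chr13:113100982-113101231, minus strand: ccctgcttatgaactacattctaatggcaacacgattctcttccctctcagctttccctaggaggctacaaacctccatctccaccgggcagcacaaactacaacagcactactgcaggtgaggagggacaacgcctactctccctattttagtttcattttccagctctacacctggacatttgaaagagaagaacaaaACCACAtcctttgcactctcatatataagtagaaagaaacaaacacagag
Prf1, chr10:61297586-61297835, plus strand: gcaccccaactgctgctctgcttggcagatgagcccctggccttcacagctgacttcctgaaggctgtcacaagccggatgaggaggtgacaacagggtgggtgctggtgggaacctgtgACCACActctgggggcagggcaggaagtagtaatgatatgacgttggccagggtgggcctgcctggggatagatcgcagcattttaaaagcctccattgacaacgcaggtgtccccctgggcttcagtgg
Nkg7, chr7:43436888-43437137, plus strand: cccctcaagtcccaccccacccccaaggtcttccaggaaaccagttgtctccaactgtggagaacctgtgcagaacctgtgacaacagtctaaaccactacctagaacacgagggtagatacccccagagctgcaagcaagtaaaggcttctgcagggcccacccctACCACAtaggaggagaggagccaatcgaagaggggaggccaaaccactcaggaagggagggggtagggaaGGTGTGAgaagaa
All 4 windows held TGTGGT on 1 strand or the other, as did 14% of 32851 RefSeq mouse promoters of this length. Gzmb had it at 93 to 88 and at 34 to 29 bases before the start, with the AP-1 letters between them at 58 to 52 bases, which 6.75% of promoters held. Gzma had it at 50 to 45, Prf1 at 130 to 125 and Nkg7 at 83 to 78 bases before the start. Nkg7 also had the T-box letters at 13 to 7 bases, which 3.33% of promoters held. The windows of Cd3e and Cd3g were searched too and had none of these letters, nor did any of the 6 windows hold the TATA box letters TATAAA, found in 12.4% of promoters. Other forms of the TATA box were not searched, and the Gzma window holds the similar letters TATATAA near its end. A match describes letters only, and none of these data measured binding.

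Of the 4 granule genes, Gzmb, Gzma and Prf1 were counted mainly in the TAµ libraries, while Nkg7 was counted about as much elsewhere. Gzmb, which encodes granzyme B, was the most even of them: it had 3.78 CPM in IV, 3.85 CPM in ICV and 3.68 CPM in ITL CD45.1 TAµ, against 0 counts in all 3 CD45.2 µ and all 3 CD45.1 µ libraries. The TAµ mean was 3.77 ± 0.08 CPM (SD, n = 3), from 137 counts in all. A count of 0 in 1 of the µ libraries allowed up to 0.141 to 0.493 CPM, the value that 3 counts of its total would give, so the groups did not overlap. Measured against 3 counts over the whole group, Gzmb was at least 49.3-fold higher in TAµ than in CD45.1 µ, and at least 50.7-fold higher than in CD45.2 µ. In PBS it had 1.02 CPM and in CTR µ 2.53 CPM, so 1 CD45.2 library and 1 library titled µ did have counts.

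Gzma, which encodes granzyme A, and Prf1, which encodes perforin, had counts in the TAµ libraries of only 2 of the 3 routes. Gzma had 4.73 CPM in IV, 0 in ICV and 4.20 CPM in ITL CD45.1 TAµ, against 0 counts in every CD45.2 µ and CD45.1 µ library. Prf1 had 5.67 CPM in IV, 0 in ICV and 3.05 CPM in ITL CD45.1 TAµ, and again 0 counts in every CD45.2 µ and CD45.1 µ library. For both genes the ICV TAµ library, whose 0 allowed up to 0.251 CPM, could not be told from the µ libraries. Against 3 counts over the group, the pooled TAµ level was at least 39.6-fold higher for Gzma and at least 40.6-fold higher for Prf1 than in CD45.1 µ. Outside the 9 libraries of the complete layout, Prf1 had 1.38 CPM (27 counts) in PBS and 1 count in CTR µ, and Gzma had 2 counts in PBS and 0 in CTR µ.

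Nkg7, which encodes a granule membrane protein needed for degranulation, followed the same routes within TAµ but was not limited to that population. It had 3.65 CPM in IV, 0 in ICV and 2.0 CPM in ITL CD45.1 TAµ, against 0 counts in the 3 CD45.2 µ libraries and 0, 0 and 3.01 CPM in IV, ICV and ITL CD45.1 µ. The ITL CD45.1 µ library thus lay above the ITL TAµ library, although Gzmb, Gzma and Prf1 were all at 0 there. Its pooled level was at least 27.0-fold higher in TAµ than in CD45.2 µ, and its ratio to CD45.1 µ was 2.39. PBS had 2.40 CPM and CTR µ 1 count.

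**Figure D1:**
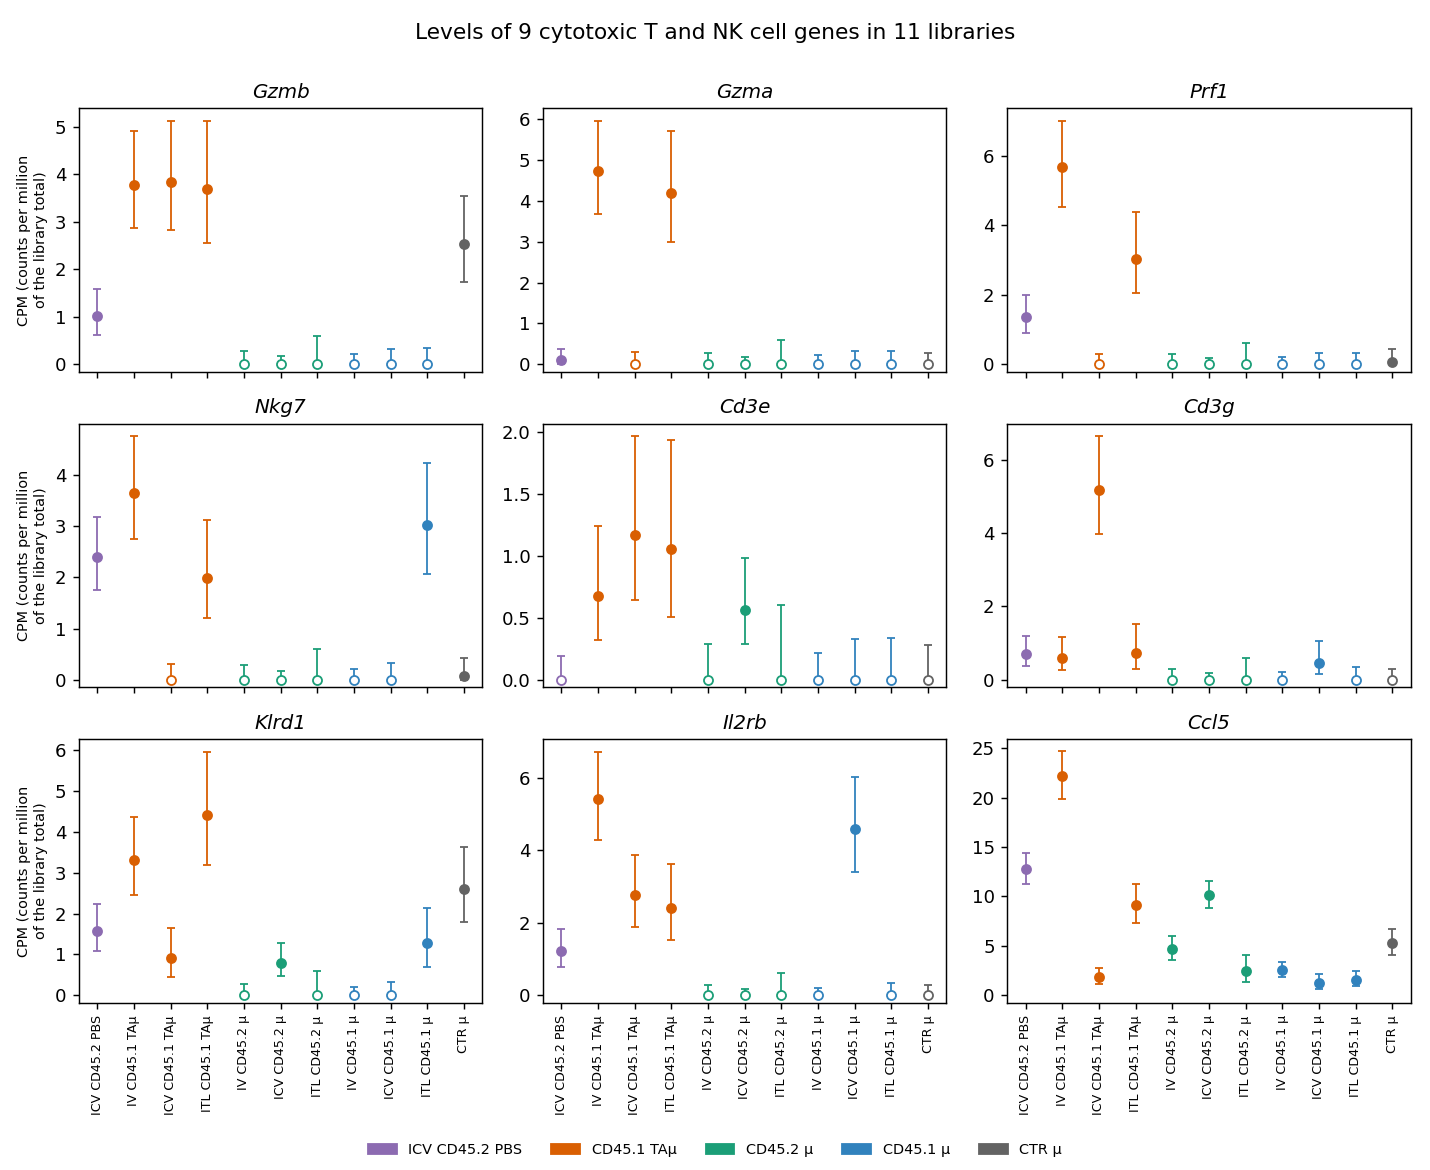
Levels of the 9 genes in CPM in each of the 11 libraries, with exact 95% binomial intervals that cover counting error only. Open circles are counts of 0 and colours give the population. Gzmb stands at 3.68 to 3.85 CPM in the 3 TAµ libraries, while Gzma, Prf1 and Nkg7 stand at 0 in the ICV TAµ library.

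The CD3 genes were counted in all 3 TAµ libraries, at low levels. Cd3e, which encodes the epsilon chain of the T cell receptor complex, had 0.676, 1.17 and 1.05 CPM in IV, ICV and ITL CD45.1 TAµ (10 to 14 counts each), against 0, 0.564 and 0 CPM in IV, ICV and ITL CD45.2 µ and 0 in all 3 CD45.1 µ libraries. Cd3g, which encodes the gamma chain, had 0.608, 5.18 and 0.736 CPM in IV, ICV and ITL CD45.1 TAµ, against 0 counts in CD45.2 µ and 0, 0.449 and 0 CPM in IV, ICV and ITL CD45.1 µ. The lowest TAµ library lay above the highest library of either µ population for both genes, for Cd3g by 9 counts against 5 in the nearest library. The pooled Cd3e level was at least 12.2-fold higher in TAµ than in CD45.1 µ, and the pooled Cd3g ratio of 16.8 owed most of its size to the ICV TAµ library with 62 counts. That library had the highest level of both CD3 genes and no count of Gzma, Prf1 or Nkg7. Cd3g had 0.714 CPM in PBS, where Cd3e had 0 counts, and both were at 0 in CTR µ.

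Klrd1, which encodes CD94, a chain of the CD94/NKG2 receptors of NK cells and activated T cells, had 3.31, 0.920 and 4.41 CPM in IV, ICV and ITL CD45.1 TAµ. It had 0, 0.799 and 0 CPM in IV, ICV and ITL CD45.2 µ, and 0, 0 and 1.28 CPM in IV, ICV and ITL CD45.1 µ. The TAµ libraries lay above all CD45.2 µ libraries, narrowly so for the ICV pair (11 counts against 17 in a deeper library), and the ICV TAµ library lay below ITL CD45.1 µ. PBS had 1.58 CPM and CTR µ 2.60 CPM.

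Il2rb encodes the receptor chain that interleukin 2 and interleukin 15 share. Its level was 5.40, 2.76 and 2.42 CPM in IV, ICV and ITL CD45.1 TAµ, against 0 counts in the 3 CD45.2 µ libraries and 0, 4.58 and 0 CPM in IV, ICV and ITL CD45.1 µ. All TAµ libraries were above CD45.2 µ, with a pooled level at least 50.4-fold higher. The whole CD45.1 µ level came from the ICV library, and without that library all TAµ libraries were above CD45.1 µ as well. PBS had 1.22 CPM and CTR µ 0 counts.

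Ccl5, a chemokine that draws T cells and is made by killer lymphocytes as well as by activated myeloid cells, differed from the other 8 genes in having counts in all 11 libraries. It had 22.2, 1.84 and 9.14 CPM in IV, ICV and ITL CD45.1 TAµ, then 4.64, 10.1 and 2.46 CPM in IV, ICV and ITL CD45.2 µ, and 2.52, 1.26 and 1.55 CPM in IV, ICV and ITL CD45.1 µ. The 3 populations overlapped: ICV TAµ lay within the range of CD45.1 µ and below every CD45.2 µ library. PBS had 12.7 CPM and CTR µ 5.28 CPM. The pooled ratio of TAµ to CD45.1 µ was 6.37 and that of TAµ to CD45.2 µ 1.67.

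Taking each gene's mean over the 3 libraries, TAµ was highest for all 9 genes, but the SD was about as large as the mean for Gzma (2.98 ± 2.59 CPM), Prf1 (2.91 ± 2.84 CPM), Nkg7 (1.88 ± 1.83 CPM), Cd3g (2.18 ± 2.61 CPM) and Ccl5 (11 ± 10.3 CPM; SD, n = 3 each). The lower neighbours in that order, CD45.2 µ and CD45.1 µ, overlapped for every gene: Ccl5 had 5.73 ± 3.94 CPM in CD45.2 µ and 1.78 ± 0.66 CPM in CD45.1 µ, and Il2rb had 0 counts in CD45.2 µ and 1.53 ± 2.64 CPM in CD45.1 µ. All 3 TAµ libraries lay above all 3 CD45.1 µ libraries for 3 of the 9 genes, Gzmb, Cd3e and Cd3g, where 8.01% of the 17299 genes with a count did so. Against CD45.2 µ this held for 5 of the 9, with Klrd1 and Il2rb added, where 5.79% of genes did so. Both shares lay above those of all genes, which are not genes of like level, and both rested on few counts. Of 1920 other genes of like mean level, 14.4% had counts in all 3 TAµ libraries and none in CD45.1 µ. The members were chosen with earlier results of these data known, so these shares are a description and not a test. Without the ICV TAµ library, the numbers were 7 of 9 against CD45.1 µ (background 16.5%) and 8 of 9 against CD45.2 µ (background 14.6%), with Gzma and Prf1 added in both, Klrd1 and Ccl5 in the first and Nkg7 in the second. Without both ICV CD45.1 µ and IV CD45.2 µ they were 4 of 9 against CD45.1 µ (background 12.8%), with Il2rb added. Against CD45.2 µ they were then 5 of 9 (background 8.38%).

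None of these differences passed a test across genes. edgeR's quasi-likelihood test, with route and population as terms over the 9 libraries and Benjamini-Hochberg adjustment at 0.05, called 0 of the 8 genes that passed the count filter, and 0 were called by DESeq2 or limma-voom. In that edgeR fit 0.075% of 13339 genes passed for TAµ against CD45.1 µ, 0.345% for TAµ against CD45.2 µ, 0.03% between CD45.2 µ and CD45.1 µ and 0.217% for route. At an unadjusted p under 0.05 the edgeR test counted 4 of the 8 genes for TAµ against CD45.1 µ (Gzmb, Gzma, Prf1 and Ccl5, each with an adjusted p of 0.874), 2 for TAµ against CD45.2 µ (Gzmb, adjusted p = 0.622, and Il2rb, adjusted p = 0.634), 0 between CD45.2 µ and CD45.1 µ and 0 for route. Of all 13339 genes, 5.36%, 6.75%, 8.79% and 6.84% had an unadjusted p under 0.05 in these comparisons. Every tested gene of the set except Ccl5 needed its TAµ counts to pass the count filter. Those at 0 in a µ population therefore had to differ from it in that direction, and these member counts are a description. The fitted values of Klrd1, Il2rb, Nkg7 and Cd3e given next carry the same selection. For genes with counts in both groups, the fitted log2 fold change of TAµ over CD45.1 µ was 2.66 ± 1.01 for Ccl5, 3.07 ± 1.76 for Klrd1 (adjusted p = 0.874), 1.64 ± 1.42 for Il2rb (adjusted p = 0.894) and 1.38 ± 1.71 for Nkg7 (SE; adjusted p = 0.919). Over the alternatives these values ran from 1.51 to 3.55 for Ccl5, from 2.22 to 5.24 for Klrd1 and from 0.46 to 7.98 for Il2rb, which was 4.23 by DESeq2 and 5.47 by limma-voom. Cd3g had too few counts for the filter, and a fit without it gave 4.08 ± 2.59 (adjusted p = 0.977). For TAµ over CD45.2 µ it was 1.91 ± 2.04 for Cd3e (adjusted p = 0.930), 2.56 ± 1.73 for Klrd1 (adjusted p = 0.877) and 0.67 ± 0.82 for Ccl5 (adjusted p = 0.943). Ccl5 in CD45.2 µ over CD45.1 µ was 2.0 ± 1.11 (adjusted p = 0.598). The Nkg7 value turned to -0.42 without IV CD45.1 TAµ and to -0.41 without IV CD45.1 µ, and that of Ccl5 over CD45.2 µ turned to -0.38 without IV CD45.1 TAµ and to -0.43 without IV CD45.2 µ.

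How many weakly expressed genes had a count at all also differed between the libraries. It did so in the same direction for TAµ against CD45.1 µ, but not at every route for TAµ against CD45.2 µ. For 1920 other genes whose mean over the 9 libraries lay between 0.385 and 1.68 CPM, the range of the 8 genes other than Ccl5, 43.6% of values were 0, against 62.5% (45 of 72) for the 8 genes themselves. The share of those 1920 genes at 0 was 13.1%, 36.5% and 11.8% in IV, ICV and ITL CD45.1 TAµ, 80.8%, 20.2% and 33.1% in IV, ICV and ITL CD45.2 µ, and 64.7%, 70.3% and 61.9% in IV, ICV and ITL CD45.1 µ. The TAµ libraries with all 8 genes, IV and ITL, were those with the lowest shares at 0, and 277 of the 1920 genes (14.4%) had, like Gzmb and Cd3e, counts in all 3 TAµ libraries and none in CD45.1 µ. The part of this difference in weak genes in the contrast with CD45.1 µ was not tested. Against CD45.2 µ the share was lower in TAµ for IV and ITL and higher in TAµ for ICV, where TAµ had 3 of the 8 genes at 0 and CD45.2 µ had 6. Its part in that contrast was not tested either. In these bulk libraries fewer cells of a type and less RNA per cell cannot be told apart.

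**Figure D2:**
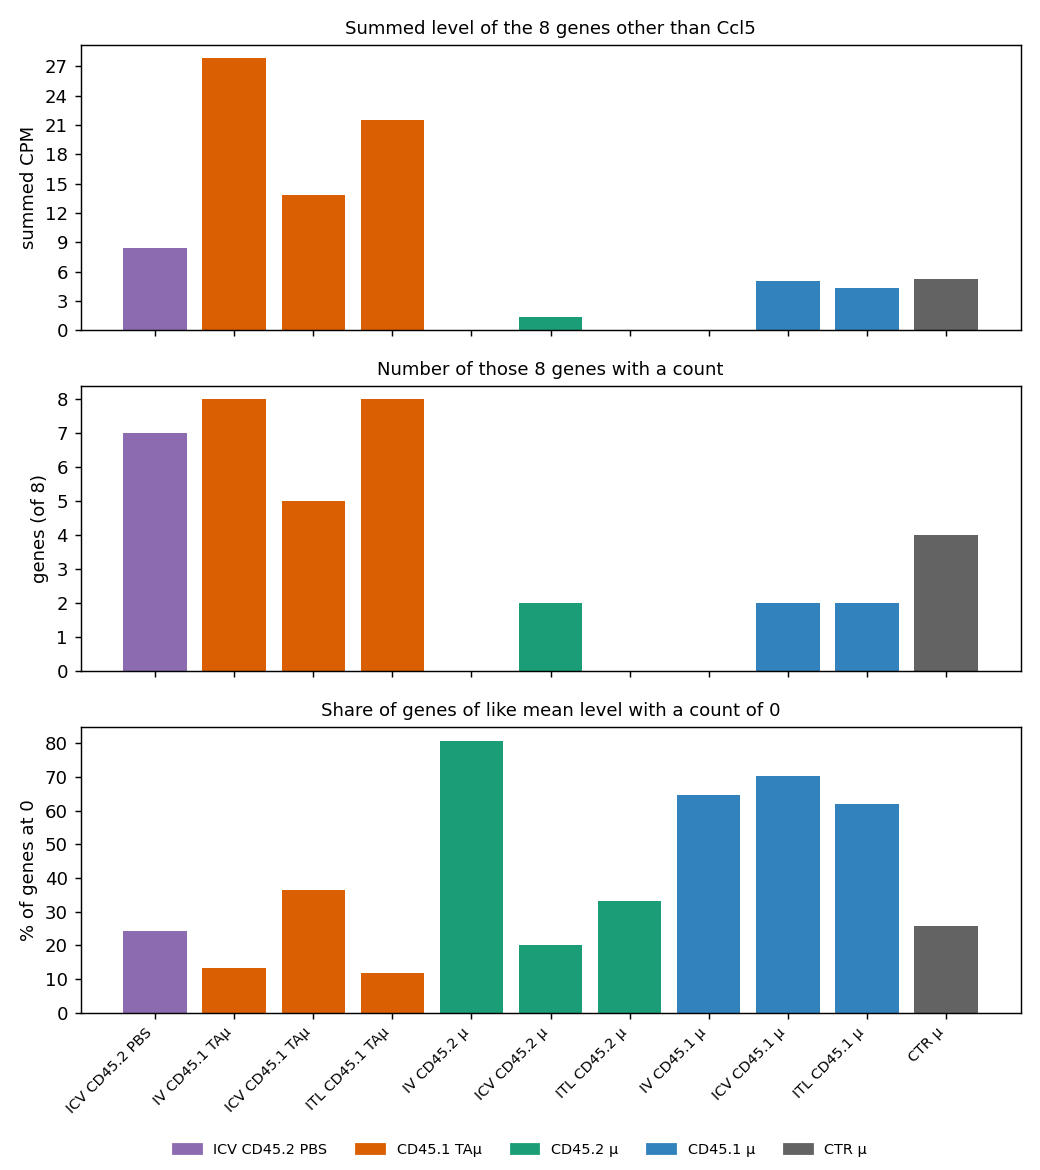
For each library, the summed level in CPM of the 8 genes other than Ccl5 (top), how many of the 8 had a count (middle), and the percentage of 1920 other genes of like mean level that had a count of 0 (bottom). The TAµ libraries sum to 27.8, 13.9 and 21.5 CPM and no other library of the complete layout to more than 5.03 CPM, and the CD45.1 µ libraries have 61.9% to 70.3% of such genes at 0.

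The single PBS library was set beside the ICV CD45.2 µ library, which shares its route and allele. PBS had 8 of the 9 genes with a count and ICV CD45.2 µ 3 of the 9. With 1 library each there is no replicate check, and the intervals cover counting error only. Nkg7 had 47 counts in PBS and 0 in ICV CD45.2 µ, at least 17.0-fold higher, and Prf1 had 27 and 0, at least 9.77-fold higher. Il2rb was at least 8.68-fold, Gzmb at least 7.23-fold and Cd3g at least 5.06-fold higher in PBS. These 5 genes passed a 2-fold higher level, as did 9.77% of the 13091 genes with at least 20 counts in both libraries together. Those genes are not genes of like level, and Cd3g had only 14 such counts. Klrd1 had a ratio of 1.98 (95% interval 1.06 to 3.81) and Ccl5 a ratio of 1.26 (1.05 to 1.52), and Cd3e, with 0 counts in PBS and 12 in ICV CD45.2 µ, was at least 3.69-fold lower. The share of like-level genes at 0 was 24.2% in PBS and 20.2% in ICV CD45.2 µ, and its part in these differences was not tested.

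Against CTR µ, 0 of the 9 genes had a CTR value outside the range of the 9 libraries of the complete layout, where 12.4% of 17500 genes did. For every gene but Ccl5 that range began at 0, so no CTR value could lie below it, and the number is a description. Within the range, CTR µ lay above every CD45.2 µ and CD45.1 µ library for Gzmb (2.53 CPM) and Klrd1 (2.60 CPM), and for Prf1 by 1 count. Of the 9, 5 had a count in CTR µ: Gzmb, Klrd1 and Ccl5, with 33, 34 and 69 counts, and Prf1 and Nkg7 with 1 each. Gzma, Cd3e, Cd3g and Il2rb were at 0 there.

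Other genes of the same cells were read from lists of related genes. No gene of the granule, T cell, NK cell, interleukin receptor or chemokine lists passed the edgeR test described above in either direction in any population comparison or for route, and 0 to 4 genes of a list had an unadjusted p under 0.05 in any of these. In alternative fits some granule, interleukin receptor and chemokine genes passed for some comparisons, among them Ctsc, but no further T cell or NK cell gene did. The direction of fitted changes in the T cell and NK cell lists is not summarised, because genes at 0 in a µ population passed the count filter only through their TAµ counts. Of 19 NK cell receptor and regulator genes, 17, 8 and 17 had a count in IV, ICV and ITL CD45.1 TAµ, 1, 6 and 3 in IV, ICV and ITL CD45.2 µ, and 4, 3 and 4 in IV, ICV and ITL CD45.1 µ, with 9 in PBS and 1 in CTR µ. Of 17 further T cell genes, 17, 13 and 17 had a count in IV, ICV and ITL CD45.1 TAµ, 3, 10 and 6 in IV, ICV and ITL CD45.2 µ, and 5, 8 and 7 in IV, ICV and ITL CD45.1 µ. Beside these stand the shares of like-level genes at 0 given above. They were 13.1%, 36.5% and 11.8% in IV, ICV and ITL CD45.1 TAµ. In the same order they were 80.8%, 20.2% and 33.1% in CD45.2 µ, and 64.7%, 70.3% and 61.9% in CD45.1 µ. The list counts were not tested against these shares.

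Genes that define the cell types, picked after their values were seen, did not all keep together. Ncr1, which encodes the NK receptor NKp46, had 22 counts in IV TAµ and 12 in ITL TAµ and 0 in the other 9 libraries. Klrb1c, which encodes the NK1.1 antigen, had 26 counts in IV TAµ, 12 in ITL TAµ and 10 in PBS, and Fasl, the ligand of the death receptor Fas, had 24, 11 and 22 counts in those libraries, both with 0 elsewhere. In the ICV TAµ library these 3 genes were at 0, while Cd3d, the delta chain of CD3, had 23 counts, Zap70, a kinase of T cell receptor signalling, had 40, and Ifng, which encodes interferon gamma, had 48. Other T cell genes were low in that library: Cd247, the zeta chain of CD3, had 18, 0 and 22 counts in IV, ICV and ITL TAµ, Lck, another T cell receptor kinase, had 11, 3 and 11, and Cd5, a T cell surface receptor, had 21, 2 and 9. Cd8a had 11, 0 and 3 counts in IV, ICV and ITL TAµ and its highest count, 36, in ICV CD45.1 µ, where Zap70 also had 30 counts and Il2rb its 51. Gzmk was at 0 in all 11 libraries, and Gzmc, a close relative of Gzmb with which reads could be shared, had only 2 counts, in CTR µ.

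The genes with the highest levels in these lists included ones that myeloid cells also express, with other patterns. Ctsc, whose product activates granzymes, had 1110, 1269 and 1140 CPM in IV, ICV and ITL CD45.1 TAµ, against 389, 970 and 482 CPM in IV, ICV and ITL CD45.2 µ and 842, 1113 and 927 CPM in IV, ICV and ITL CD45.1 µ. Its fitted log2 fold change of TAµ over CD45.2 µ was 1.09 ± 0.25 (SE; edgeR adjusted p = 0.0841), which did not pass. Only 4 of 18 alternatives called it: edgeR without the count filter (adjusted p = 0.0303), DESeq2 (adjusted p = 0.000556), limma-voom (adjusted p = 0.0257) and edgeR without ICV CD45.2 µ (adjusted p = 0.00588). Ccl3, another CC chemokine, had 423, 194 and 227 CPM in IV, ICV and ITL CD45.1 TAµ, against 487, 455 and 345 CPM in IV, ICV and ITL CD45.2 µ. Its fitted log2 fold change was -0.58 ± 0.25 (SE; adjusted p = 0.660). Within each route Ccl3 was lower in TAµ than in CD45.2 µ, while Ccl5 was lower in TAµ for ICV alone. Cd4 had 2.90, 10.3 and 6.83 CPM in IV, ICV and ITL CD45.1 TAµ and its highest level, 14 CPM, in ICV CD45.2 µ, a library with none of the 4 granule genes.

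**Figure D3:**
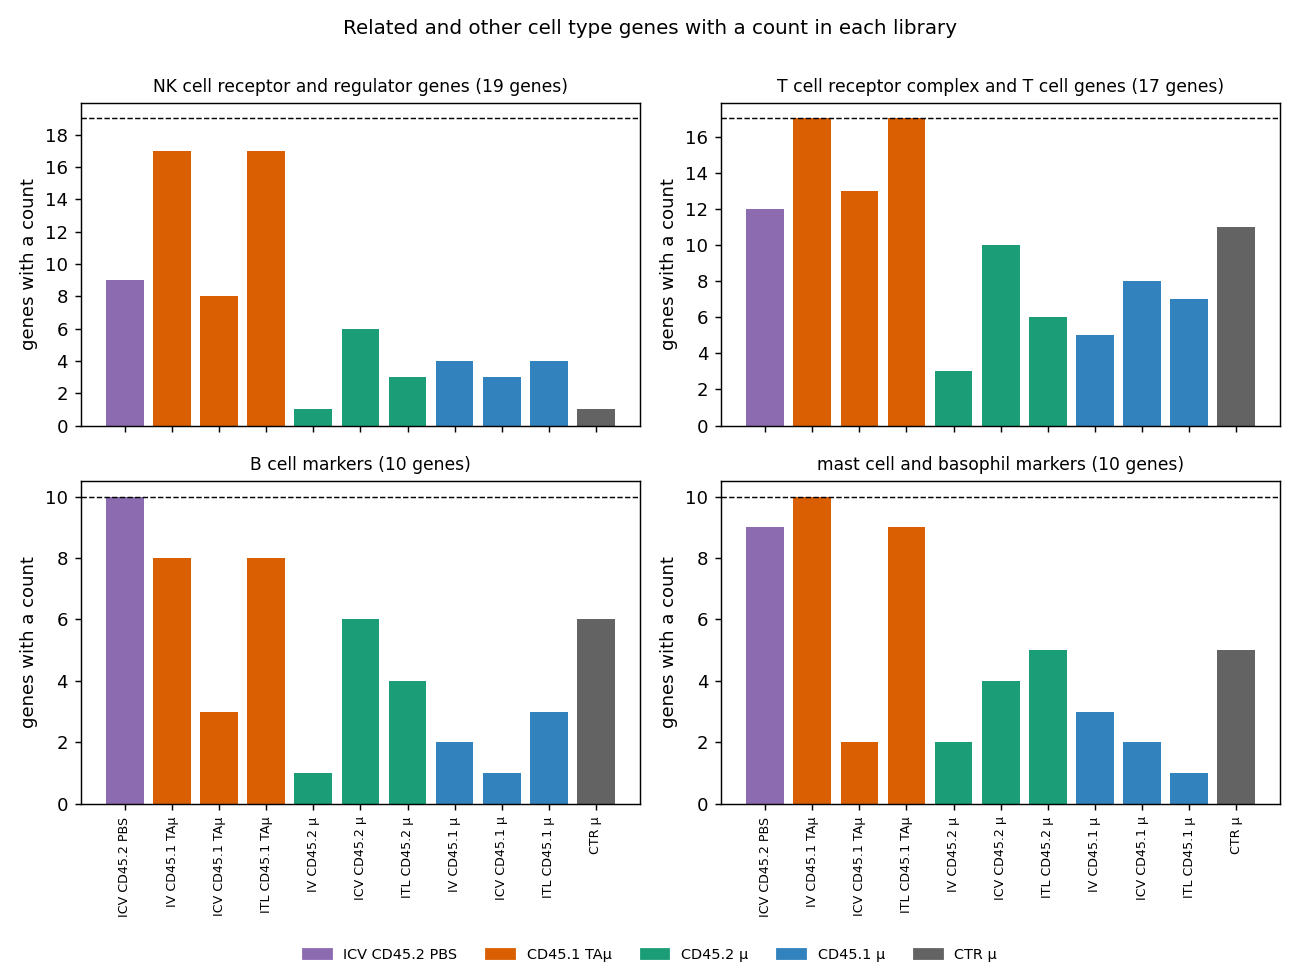
Number of genes with a count in each of the 11 libraries for NK cell, T cell, B cell and mast cell and basophil lists; the dashed line is the number of genes in the list. IV and ITL CD45.1 TAµ have 17 of 19 NK cell genes and 17 of 17 T cell genes, and also 8 of 10 B cell genes and 9 or more of 10 mast cell and basophil genes.

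Markers of other blood cells did not keep apart from these genes. Of 10 B cell markers, 8, 3 and 8 had a count in IV, ICV and ITL CD45.1 TAµ, 1, 6 and 4 in IV, ICV and ITL CD45.2 µ, and 2, 1 and 3 in IV, ICV and ITL CD45.1 µ, with summed levels of 5.00 to 36.6 CPM, 6.41 to 8.83 CPM and 1.89 to 12.6 CPM. Of 10 mast cell and basophil markers, 10, 2 and 9 had a count in IV, ICV and ITL CD45.1 TAµ and 5 or fewer in each µ library. The shares of like-level genes at 0 given above differed between these libraries too. No B cell, mast cell and basophil, plasmacytoid dendritic cell or neutrophil marker passed the same edgeR test, and 0 to 2 of each list had an unadjusted p under 0.05, but some neutrophil markers and a mast cell marker passed in alternative fits. Among the microglia markers, Sall1, a transcription factor of brain-derived microglia, fell in TAµ: its log2 fold change was -4.83 ± 0.49 against CD45.1 µ (SE; adjusted p = 0.000199) and -6.27 ± 0.49 against CD45.2 µ (adjusted p = 3.60e-06). P2ry12, a purine receptor of microglia, fell by 1.44 on the log2 scale against CD45.2 µ (SE 0.29, adjusted p = 0.0427), a call that 7 of 18 alternatives also made. The Sall1 calls were made in 17 of 18 alternatives against CD45.1 µ, with the exception of leaving out IV CD45.1 TAµ, and in all 18 against CD45.2 µ. The part of these cell types in the levels of the killer cell genes was not tested.

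The genes whose pattern was most like that of the 9 were found among 12415 genes with a mean of at least 1 CPM. Likeness was the Pearson correlation over the 11 libraries with a score of the 9 genes. For that score the log2 levels of each gene were centred on their mean and divided by their SD, then averaged over the genes. The 10 most alike were Dock3 (r = 0.88), Dnajb13 (0.86), Ak8 (0.85), Casp12 (0.85), Fgd1 (0.84), Ear1 (0.82), Prg2 (0.82), Dnase1l3 (0.81), Epx (0.80) and Fam178b (0.80). Of these, Ear1, Prg2 and Epx encode proteins of eosinophil granules, and they had 21.4, 32.8 and 30.8 CPM in IV CD45.1 TAµ, where Gzma and Prf1 had 4.73 and 5.67 CPM. None of the 10 is a T cell or NK cell marker of the lists. The 9 genes themselves correlated pair by pair with r between -0.01 and 0.92, with a median of 0.60 over 36 pairs. All these values share the same 11 libraries and their differences in how many weak genes were counted, and are given as a description.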

How the data were processed

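Polyadenylated RNA of sorted brain cells was sequenced in 11 libraries. The authors deposited whole-number read counts per gene symbol for each library, without normalization. STAR (version not given) and the mouse build mm39 (GRCm39) are named in the submitters' processing notes. Annotation, strand setting and handling of reads shared by related genes are not given in the sources used. All columns were assigned, with 0 left over. CPM are counts over the library total. The 9 libraries of the complete layout of 3 routes by 3 populations were fitted in R 4.3.3 with edgeR 4.0.16 (quasi-likelihood test, TMM, filter with minimum count 10 and minimum total 15, additive route and population, 4 residual degrees of freedom, biological coefficient of variation 0.842), adjusted over 13339 genes by Benjamini-Hochberg. The fit was tested on simulated data. Group folds use pooled CPM, with a group at 0 set to 3 counts. Exact 95% binomial intervals and limits cover counting error only, as no molecular identifiers are named and several reads may come from 1 molecule, and nothing says that libraries are independent animals. The members and 10 gene lists (133 genes, 128 with rows) were chosen with earlier results of these data known. Named list genes were those that passed and the 4 highest of each list, besides 26 defining genes chosen after their values were seen, and the 10 most alike by correlation of log2(CPM + 0.5). Promoters are from RefSeq (GRCm38.p6), which had 6 of the 9 genes. Alternatives were DESeq2 1.42.0, limma 3.58.1 (voom), other scalings and filters, no block, libraries left out and, chosen after seeing the data, edgeR's legacy fit and the settings for groups that do not overlap.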

Additional observations from a re-analysis of the deposited data

Results flagged for a closer look

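The difference of Ccl5 between CD45.1 TAµ and CD45.2 µ had opposite signs by route: it was 17.5 CPM for IV and 6.68 CPM for ITL, but -8.26 CPM for ICV. The ICV difference combined the lowest TAµ level, 1.84 CPM, with the highest CD45.2 µ level, 10.1 CPM. Klrd1 differed between CD45.2 µ and CD45.1 µ by 0.80 CPM for ICV and by -1.28 CPM for ITL, from 17 counts in ICV CD45.2 µ and 14 counts in ITL CD45.1 µ. With 1 library per route and population, neither difference between routes was tested.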

How the results depend on the processing

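Under all 18 alternatives 0 of the tested members were called in any comparison. At an unadjusted p under 0.05 the alternatives counted 0 to 6 members for TAµ against CD45.1 µ, 0 to 6 for TAµ against CD45.2 µ, 0 to 1 between CD45.2 µ and CD45.1 µ and 0 for route, beside 2.91% to 10.5%, 3.79% to 10.4%, 4.72% to 11.8% and 3.83% to 10.2% of all genes tested. The number of genes called over the whole table depended on the processing, and the cause was not tested. For TAµ against CD45.1 µ, CD45.2 µ against CD45.1 µ, TAµ against CD45.2 µ and route, edgeR called 10, 4, 46 and 29 genes, DESeq2 217, 277, 193 and 104, a fit without the route block 2, 0, 29 and 8, and edgeR's legacy fit 3, 0, 22 and 0. limma-voom called 0 between CD45.2 µ and CD45.1 µ, 80 for TAµ against CD45.2 µ and 71 for route. Without a filter 23 genes were called for TAµ against CD45.1 µ and 44 for route, and with a filter of 1 CPM in 3 libraries 0 between CD45.2 µ and CD45.1 µ. Leaving out 1 library at a time gave 0 to 24, 0 to 29, 5 to 159 and 0 to 48 genes. The members that did not overlap numbered 3 to 7 against CD45.1 µ and 5 to 8 against CD45.2 µ, the highest being without ICV CD45.1 TAµ. Among the members’ fitted values 7 alternative values changed sign, and the others kept their direction and side of the threshold. The changes of sign were in Klrd1, Ccl5 and Nkg7. Klrd1 in CD45.2 µ over CD45.1 µ was -0.90 under limma-voom and ran from -0.15 to 1.23 without 1 library. Ccl5 in TAµ over CD45.2 µ was -0.47 without both ICV CD45.1 µ and IV CD45.2 µ and ran from -0.43 to 2.17 without 1 library. Nkg7 in TAµ over CD45.1 µ ran from -0.42 to 6.68. Settings that left a group at 0 counts gave no fold change. No paired analysis was possible because no label gives a replicate number or names an animal. A gene at 0 in 1 library could still have had up to 0.141 to 0.493 CPM.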

Other observations

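Some genes of the T cell and NK cell lists had their highest level outside the TAµ libraries. Klrk1, which encodes the activating receptor NKG2D, had 4.05, 0.08 and 2.84 CPM in IV, ICV and ITL CD45.1 TAµ, against 14, 1.62 and 2.92 CPM in IV, ICV and ITL CD45.1 µ. Thy1, a surface protein of T cells and neurons, had 13.4 CPM in IV CD45.2 µ and at most 2.87 CPM in each other library, while Cd3e and Cd3g were at 0 in IV CD45.2 µ. Bcl11b, a transcription factor of the T cell lineage, had 0.61, 0.42 and 0.95 CPM in IV, ICV and ITL CD45.1 TAµ, against 0, 6.01 and 1.19 CPM in IV, ICV and ITL CD45.1 µ. Klrk1 and Thy1 belong to the 4 highest of their lists, and Bcl11b was chosen after its values were seen.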
